A study of Homo sapiens with 20 samples.

Results

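BNIP3, BNIP3L, FAM162A, FUNDC1 and MCL1 are 5 genes that link low oxygen to the removal of mitochondria and to cell death, and their HIF1A binding was read from the HIF1A ChIP-seq peaks of 4 cancer cell lines. A peak belonged to a gene when its centre lay within the GENCODE v44lift37 gene record or within 10 kb of either end of it (genome build GRCh37). This rule found 23 peaks among the 26484 peaks of 8 lists, 20 of them in hypoxia, for 4 of the 5 genes. The 5 genes are among 20163 protein-coding genes. HIF1A, the subunit of hypoxia-inducible factor 1 that cells degrade when oxygen is plentiful, binds DNA together with ARNT, and ChIP-seq reads the DNA fragments that an antibody against it recovers from fixed cells. HCT116 and RKO are colon carcinoma lines and A549 and H460 are lung carcinoma lines, and each spent 24 h under normoxia or under 1% O2 (hypoxia), with no genetic change or drug named for any group. Each line and condition had 2 replicate ChIP libraries and each line had 1 input library of genomic DNA.

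Mitophagy is the engulfment of whole mitochondria by autophagosomes. BNIP3, BNIP3L (also called NIX) and FUNDC1 are receptors in the mitochondrial outer membrane that bind the LC3 and GABARAP proteins of the growing autophagosome through a short motif facing the cytosol. BNIP3 and BNIP3L also carry a BH3-like stretch, through which they were first classed as death-promoting relatives of the BCL2 family, and both are textbook HIF1A targets. FAM162A (also called HGTD-P) is a mitochondrial protein named as a mediator of hypoxic cell death. MCL1 is a short-lived anti-apoptotic member of the BCL2 family. FUNDC1 is known to be switched on in hypoxia through the loss of phosphate groups.

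The authors combined the replicate tags of a group and called peaks once, so the values below have no replicate error. The libraries held 41.2 to 81.5 M tags (1 M is 1000000), and the lists held 287 to 9171 peaks. A tag is an aligned read, and the level of a peak is its number of tags per 10 M tags of the library. The fold over input that a peak had to reach was 14 in H460, 13 in A549, 7 in HCT116 and 6 in RKO, so lists of different lines were not called at 1 threshold. Intervals are exact Poisson 95% intervals of the tags and cover counting error only. The input library of RKO is described as A549 material and that of A549 as RKO material in the sample descriptions, while the titles and the headers of all 8 lists name the input by the line itself.

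The sequence of the peak next to the gene start is shown for BNIP3 and FAM162A, since each line with a hypoxia peak at these genes had its strongest one there. Capitals mark RCGTG, the core of a hypoxia response element (ACGTG or GCGTG, here in either orientation), the sequence that the HIF1A and ARNT pair binds. Both runs are the HCT116 hypoxia peak, for FAM162A only up to the last base before the gene record, and read 5′ to 3′ along the gene, BNIP3 at chr10:133795486-133795634 on the minus strand and FAM162A at chr3:122102875-122103007 on the plus strand.
BNIP3: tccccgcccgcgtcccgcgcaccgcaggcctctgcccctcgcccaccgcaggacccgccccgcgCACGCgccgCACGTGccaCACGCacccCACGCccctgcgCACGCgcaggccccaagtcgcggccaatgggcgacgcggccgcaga
FAM162A: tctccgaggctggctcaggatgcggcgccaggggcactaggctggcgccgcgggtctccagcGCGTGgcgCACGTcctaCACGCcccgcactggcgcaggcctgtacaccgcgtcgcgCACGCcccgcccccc
The BNIP3 run of 149 bases is 80.5% G and C and holds 26 CpG. The palindrome CACGTG occurs 1 time in it and is read as ACGTG on both strands, centred 87 and 88 bp before the gene start. The other BNIP3 cores, each GCGTG on the opposite strand, lie 97, 79, 70 and 58 bp before the start. The FAM162A run of 133 bases is 76.7% G and C with 19 CpG, and its 4 cores lie 69, 61, 52 and 13 bp before the start, of which the core at 61 bp is ACGTG.

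In hypoxia, BNIP3L and FAM162A had a peak in all 4 lines, BNIP3 had peaks in HCT116, A549 and H460 but none in RKO, MCL1 had peaks in RKO alone, and FUNDC1 had none. Each line thus bound 3 of the 5 genes in hypoxia, where the share of all protein-coding genes with a peak by the same rule was 18.4% in H460, 21.5% in A549, 19.9% in HCT116 and 28.3% in RKO. With 2 of 5 genes bound in all 4 lines, the share over all protein-coding genes was 3.26%. Counting a peak in any line, 4 of the 5 genes were bound in hypoxia, against 51.8% of all genes. In normoxia, A549 had peaks at BNIP3 and BNIP3L and RKO had a peak at MCL1, while HCT116 and H460 had none at any of the 5 genes. The share of all genes with a normoxia peak was 3.81% in H460, 2.76% in A549, 1.29% in HCT116 and 6.93% in RKO.

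**Figure D1:**
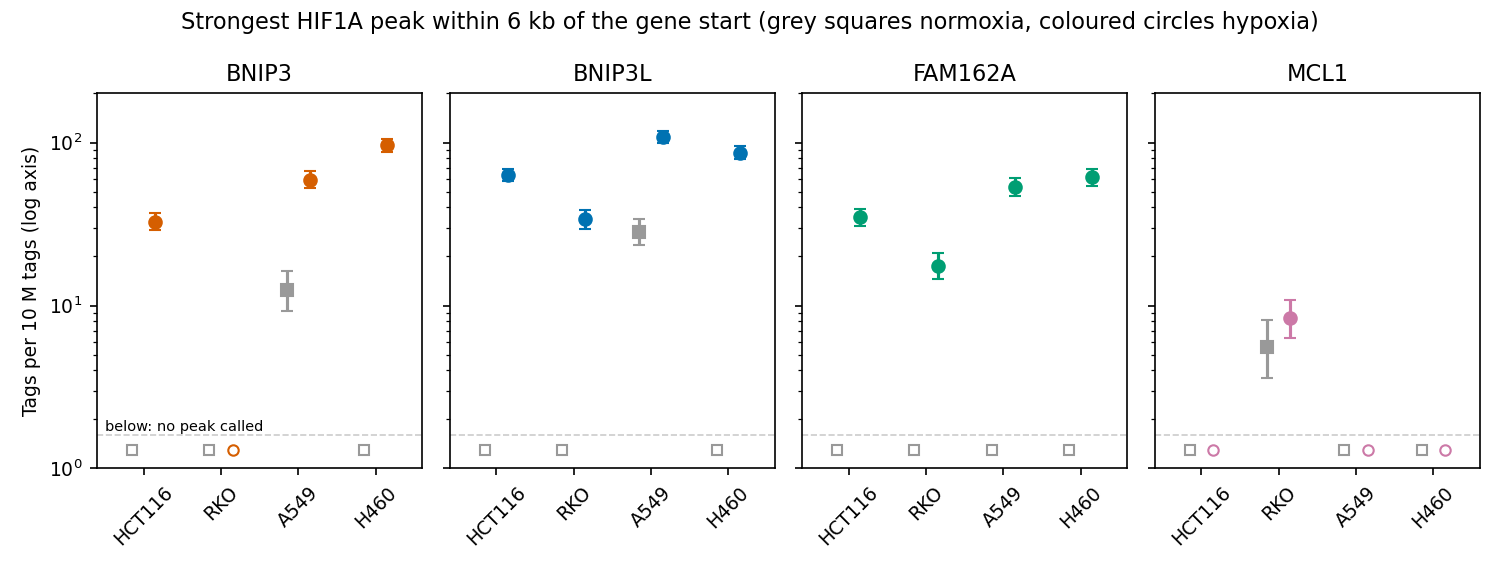
Level of the strongest HIF1A peak within 6 kb of the gene start, in tags per 10 M tags on a log axis, for each line in normoxia (grey squares) and hypoxia (coloured circles). Bars are Poisson 95% intervals of the merged library and open symbols under the dashed line mean that no peak was called. BNIP3L and FAM162A have a hypoxia symbol in every line, BNIP3 has none in RKO, and MCL1 has symbols in RKO only.

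BNIP3L had the highest levels of the 5 genes in HCT116, RKO and A549. The gene record spans 122583 bp on chromosome 8 (26240570 to 26363152, plus strand), and the peak lay in the first intron of the canonical transcript, 598 to 628 bp past the gene start in the 4 lines. Its hypoxia level was 108.7 tags per 10 M in A549 (95% interval 99.4 to 118.5) and 86.7 in H460 (78.7 to 95.4), the lung lines. In the colon lines it was 63.2 for HCT116 (57.8 to 68.9) and 33.9 for RKO (29.7 to 38.6). A549 was highest and RKO lowest, a ratio of 3.21, and none of the intervals overlap. The peak was the 7th of 5408 peaks in A549 by level, the 15th of 3877 in H460, the 8th of 3996 in HCT116 and the 16th of 9171 in RKO. Among the 232 regions called in all 4 lines it came 9th by mean rank. The 200 bp at the peak centres held 3 or 4 ACGTG cores, at 544, 562, 627 and 715 bp past the gene start, the last of them on the opposite strand and only within the A549 and H460 windows.

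BNIP3L also had weaker peaks far inside its record. A peak 68245 to 68271 bp past the gene start was called in HCT116 (5.40 tags per 10 M, 3.92 to 7.25), RKO (3.89, 2.54 to 5.70) and H460 (16.6, 13.2 to 20.6), each with an ACGTG core at 68246 bp. It lay beyond the end of the canonical transcript at 26270643, in an intron of a longer transcript, and 10.8 kb from the start of a lncRNA gene, ENSG00000254362. In A549 no peak was called there. Further BNIP3L peaks were called in 1 line each: in RKO at 20788 bp (3.74) and 48783 bp (2.69), and in A549 at 83685 bp (3.65). These 3 peaks held no RCGTG. Of the RKO list, 18.2% lay above the first of them and 89.2% above the second, and 56.1% of the A549 list lay above the third. RKO had 12.7% of its hypoxia peaks and 25.4% of its normoxia peaks on chromosome 8, against 4.02% to 6.86% of the hypoxia peaks and 1.33% to 13.2% of the normoxia peaks of the other lines, where 13.2% was HCT116. The part of these shares in the RKO-only BNIP3L peaks was not tested.

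BNIP3 is a gene of 14284 bp on chromosome 10 (133781188 to 133795471, minus strand). Its main peak lay 86 to 89 bp before the gene start, with centres within 3 bp of each other in HCT116, A549 and H460. The hypoxia level was 96.0 tags per 10 M in H460 (87.6 to 105.1). It was 59.3 in A549 (52.5 to 66.7) and 32.7 in HCT116 (28.9 to 36.9), and no intervals overlap. In H460 it was the 11th peak of the list and stood above the BNIP3L peak, whereas in HCT116 (28th) and A549 (34th) it stood below BNIP3L. All 6 cores of the sequence above lay inside the peak in each of these lines. The fold over the surrounding 10 kb, as deposited, was 68.8 in H460, 52.6 in A549 and 59.4 in HCT116. A549 had a second peak 16014 bp past the start, downstream of the gene, with 3.87 tags per 10 M (2.29 to 6.11) and 1 core. Just outside the window, H460 had a peak of 8.69 tags per 10 M at 15943 bp before the start, with 2 cores.

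**Figure D2:**
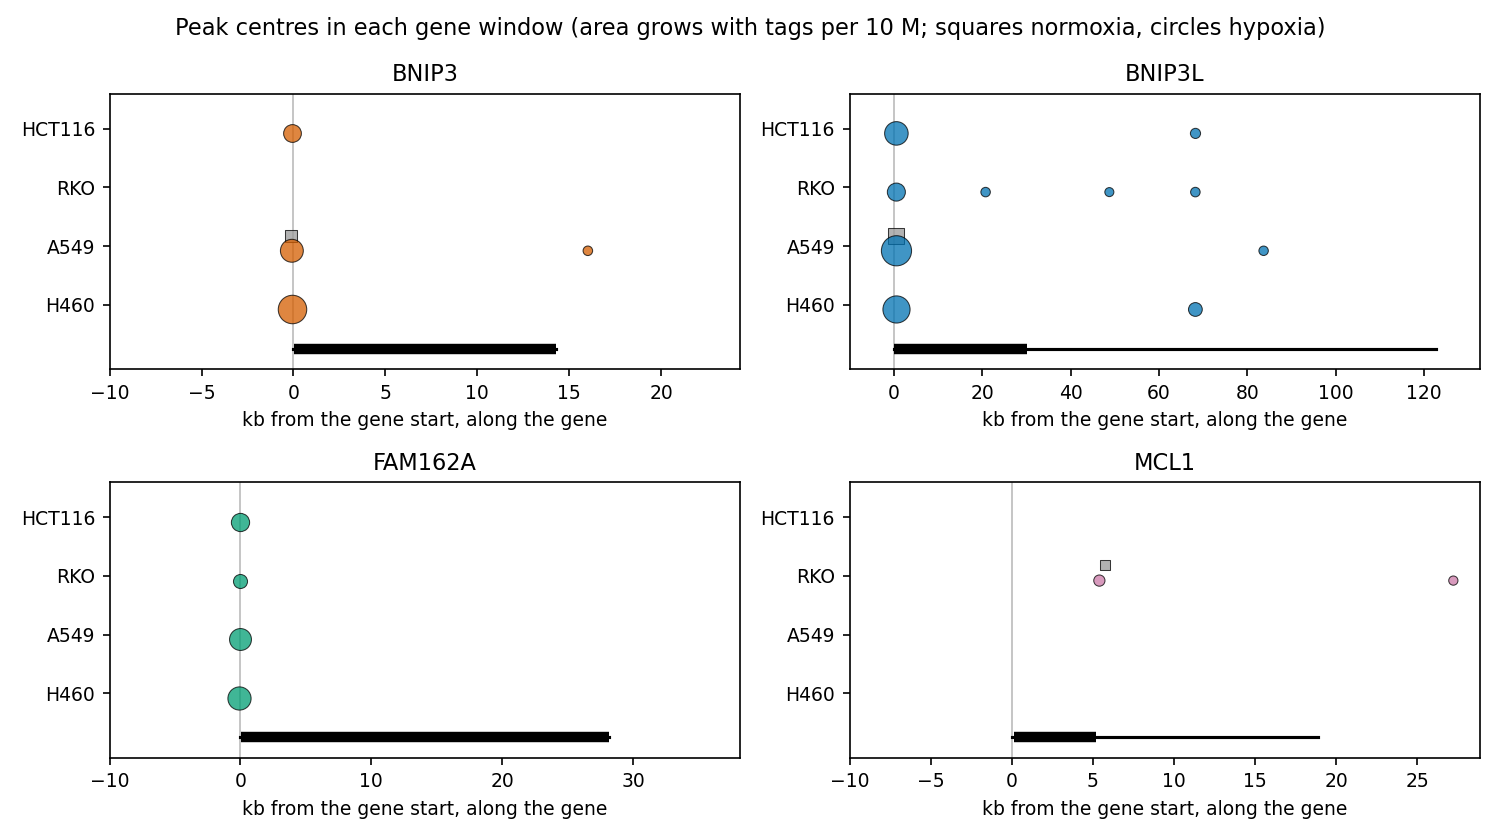
Centres of the peaks in the windows of BNIP3, BNIP3L, FAM162A and MCL1, in kb from the gene start along the gene, by line. Symbol area grows with tags per 10 M, squares are normoxia and circles hypoxia, and the black bar below is the gene record with the canonical transcript drawn thick. The large symbols of BNIP3, BNIP3L and FAM162A sit at the gene start, and the only other position shared between lines is near 68 kb in BNIP3L.

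In RKO, BNIP3 had no peak in either condition. The nearest RKO hypoxia peak lay 455079 bp from the gene start, with 3.29 tags per 10 M, and it was the only one within 1 Mb. RKO had 585 hypoxia peaks on chromosome 10. Within 1 Mb of the BNIP3 start HCT116 had 2 hypoxia peaks, A549 had 9 and H460 had 7, counts that include their BNIP3 peaks. The RKO list was called at the lowest fold over input of the 4 lines and reached down to 1.94 tags per 10 M. The authors adjusted this fold for how well the precipitation worked in each line. RKO also had the lowest median level at the regions called in all 4 lines, 9.79 tags per 10 M against 11.8 to 27. The low fold therefore does not make RKO the most sensitive list. Of the regions called in HCT116, A549 and H460, 60.4% were also called in RKO, which left 232 with and 152 without an RKO peak. These regions were ordered by mean level in HCT116, A549 and H460, each relative to the median of the regions called in all 4 lines. BNIP3 stood 17th with a level of 2.94, and the 16 regions above it all had an RKO peak. BNIP3 was the highest of the 152 regions without an RKO peak, whose median was 0.666. The region with no RKO peak that followed it in this order was next to EGLN3-AS1, at 2.71. The lists give no tag count where no peak was called, so the RKO level at BNIP3 has no value here.

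**Figure D3:**
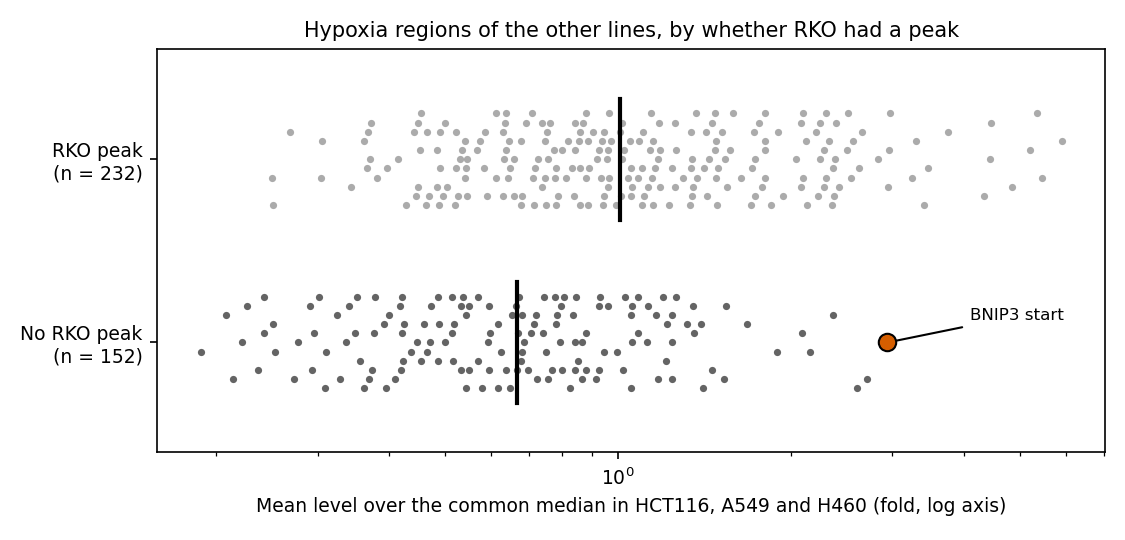
Mean level in HCT116, A549 and H460 of the regions called in hypoxia in these lines, relative to the median of the common regions (log axis), split by whether RKO had a peak. Each point is a region, its vertical offset carries no value, the thick lines are medians (1.01 with and 0.666 without an RKO peak), and the orange point is the BNIP3 start at 2.94, the rightmost of the 152 regions without an RKO peak.

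FAM162A had 1 peak in each line in hypoxia and none in normoxia. The gene spans 28174 bp on chromosome 3 (122103008 to 122131181, plus strand), and the peak lay 54 to 78 bp before its start. The level was 61.1 tags per 10 M in H460 (54.4 to 68.4) and 53.7 in A549 (47.2 to 60.8). The colon lines had 34.8 (30.9 to 39.1) for HCT116 and 17.5 (14.5 to 21.0) for RKO. RKO was lowest and H460 highest, a ratio of 3.49, and the A549 and H460 intervals overlap. The peak was the 26th, 67th, 43rd and 45th of the HCT116, RKO, A549 and H460 lists, and it came 28th by mean rank among the 232 common regions. All 4 cores of the sequence shown lay in the peak in every line. The start of MIX23, which runs in the other direction, was 852 to 876 bp from the centres, so the peak faces both genes and cannot be assigned to 1 of them by position alone.

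**Figure D4:**
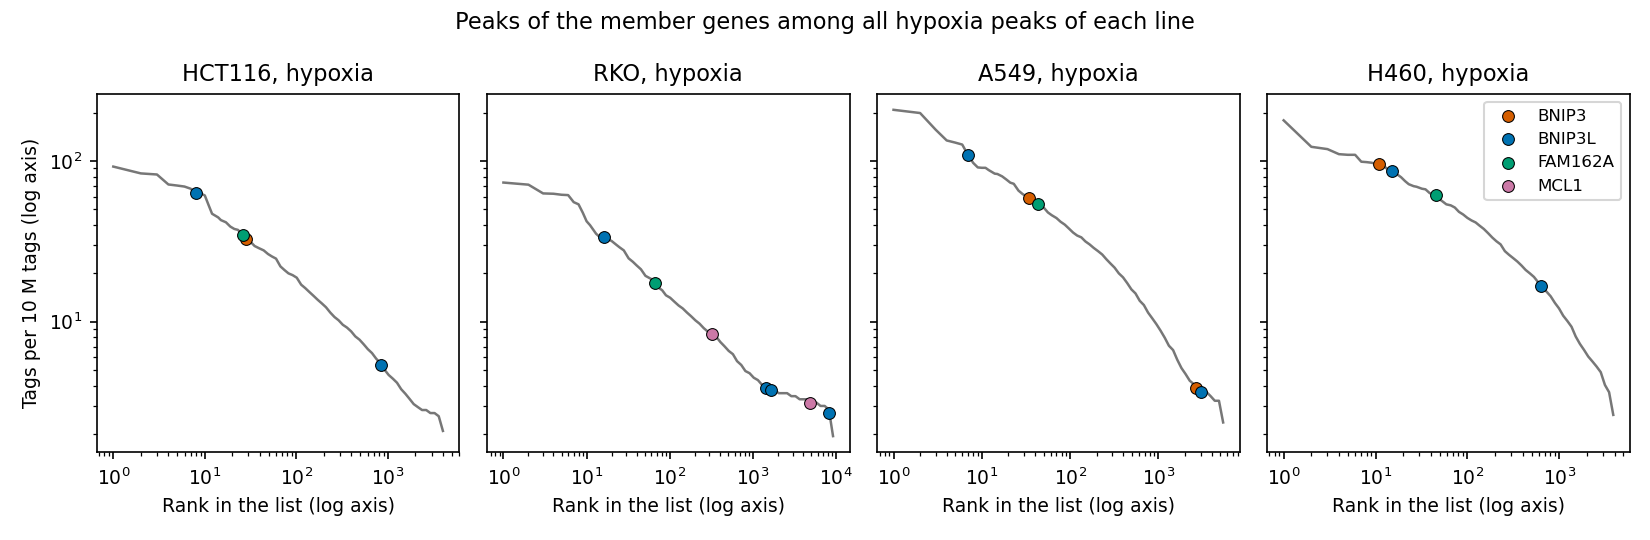
Level of every hypoxia peak against its rank in the list of the line (grey curve, both axes log), with the peaks of BNIP3, BNIP3L, FAM162A and MCL1 as coloured points. The start peaks of BNIP3, BNIP3L and FAM162A lie at ranks 7 to 67, and the other peaks of these genes lie at rank 636 or lower in the lists.

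MCL1 had peaks in RKO only. The record spans 18844 bp on chromosome 1 (150533371 to 150552214, minus strand). In RKO hypoxia the stronger peak had 8.37 tags per 10 M (6.32 to 10.9), ranked 319th, and lay 5399 bp past the gene start in an untranslated exon of longer transcripts, past the end of the canonical transcript. A normoxia peak of 5.54 tags per 10 M (3.59 to 8.18) lay close by, 5722 bp past the start, where it ranked 68th of 2092. These peaks did not overlap, so their tags were not compared. The hypoxia peak held no RCGTG and the normoxia peak held 1 GCGTG. Their folds over the surrounding 10 kb were 5.16 and 4.63, against 24.6 and 41.3 for the FAM162A and BNIP3L start peaks of RKO. The second hypoxia peak, of 3.14 tags per 10 M, lay 27216 bp past the start over ADAMTSL4 and held no RCGTG. None of the 3 MCL1 peaks lay at the MCL1 start, and the nearest hypoxia peak to that start was 879 kb away in HCT116, 599 kb in A549 and 291 kb in H460.

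FUNDC1, on the X chromosome (44382885 to 44402105, minus strand), had no peak in its window in any of the 8 lists. The nearest hypoxia peak lay 103 kb from its start in RKO (3.29 tags per 10 M), 243 kb in A549 (3.65), 1229 kb in H460 (7.08) and 4621 kb in HCT116 (3.93). A hypoxia list could reach down to 1.94 to 2.63 tags per 10 M, depending on the line, and the weakest start peak of the other receptors had 32.7.

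The effect of hypoxia within a line could be measured only where peaks of both conditions overlapped, which among these genes was the case for BNIP3 and BNIP3L in A549. BNIP3L had 28.4 tags per 10 M in A549 normoxia (23.5 to 34.0), the 12th of 526 peaks, and 108.7 in hypoxia. The ratio was 3.83 (3.13 to 4.72), or 1.94 on the log2 scale (exact binomial test, two-sided, adjusted p = 3.334e-47). BNIP3 had 12.4 tags per 10 M in A549 normoxia (9.21 to 16.3), the 59th peak, and 59.3 in hypoxia. Its ratio was 4.79 (3.54 to 6.60), or 2.26 on the log2 scale (exact binomial test, two-sided, adjusted p = 7.553e-32). Both ratios rose by more than the counting error. Among the 175 A549 peaks called in both conditions, 73.1% were higher in hypoxia at an adjusted p under 0.05 and the median ratio was 2.41, and the BNIP3 and BNIP3L ratios stood 19th and 43rd. The test sets 1 merged library against another, since the spread between replicates is not in the lists. In HCT116, RKO and H460 the start regions of BNIP3, BNIP3L and FAM162A had no normoxia peak, in lists whose lowest peaks had 2.44 to 2.89 tags per 10 M.

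Levels of different lines also carry the efficiency of the immunoprecipitation. The median level of the 232 regions called in all 4 lines was 27 tags per 10 M in H460, 23 in A549, 11.8 in HCT116 and 9.79 in RKO. All 11 start peaks of BNIP3, BNIP3L and FAM162A in hypoxia lay above this median of their line. For BNIP3L the level was 5.36 times the median in HCT116, 4.73 in A549, 3.46 in RKO and 3.21 in H460. For BNIP3 it was 3.56 in H460, 2.77 in HCT116 and 2.58 in A549. For FAM162A it was 2.95 in HCT116, 2.33 in A549, 2.26 in H460 and 1.79 in RKO. The distal BNIP3L peak (0.397 to 0.615 times the median in 3 lines) and both MCL1 peaks (0.855 and 0.321) lay below it.

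**Figure D5:**
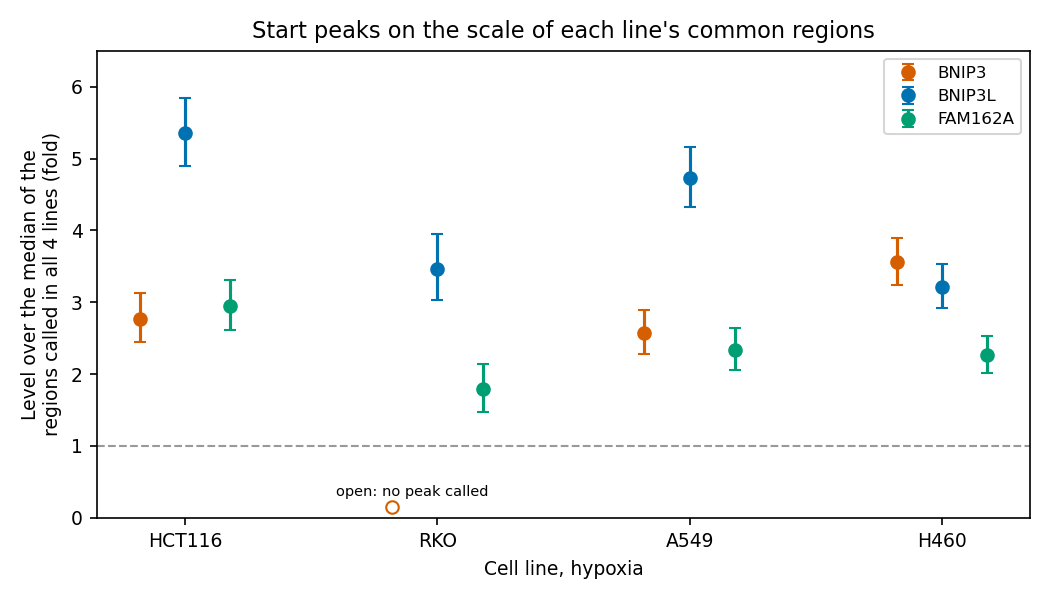
Hypoxia level of the start peaks of BNIP3, BNIP3L and FAM162A, divided by the median level of the 232 regions called in all 4 lines (dashed line at 1), with Poisson 95% intervals of the peak. The open symbol marks BNIP3 in RKO, where no peak was called. BNIP3L is highest in HCT116 at 5.36 and FAM162A is lowest in RKO at 1.79.

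The lines were then compared in pairs. The expected ratio of levels was the median, over the common regions, of the ratio between the lines of a pair. It ran from 0.385 (RKO to H460) to 1.22 (HCT116 to RKO). It is not the ratio of the medians above, so the pairs need not follow the levels over those medians. BNIP3 was 2.77 times the median in HCT116 and 2.58 in A549, but the pair gave a log2 difference of -0.07. Of 15 pairs of lines at the start regions, 9 differed (exact binomial test, two-sided, adjusted p under 0.05 over all regions of the pair). These pairs reuse the start regions of BNIP3, BNIP3L and FAM162A and the same libraries, so they are not independent. The start peaks held 117 to 515 tags, and the test finds a given difference more easily there than at weaker regions. The share of all regions that differed was 25.5% for HCT116 and RKO, 40.8% for HCT116 and A549, 36.3% for HCT116 and H460, 35.5% for RKO and A549, 38.7% for RKO and H460, and 44.7% for A549 and H460.

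BNIP3L was higher in HCT116 and A549 than in RKO and H460. The log2 difference was 0.61 between HCT116 and RKO (adjusted p = 2.035e-06, exact binomial test) and 0.53 between HCT116 and H460 (adjusted p = 2.189e-07, exact). A549 exceeded H460 by 0.53 (adjusted p = 1.56e-07, exact), and RKO against A549 gave -0.54 (adjusted p = 2.722e-05, exact). HCT116 and A549 could not be told apart (0.00, 95% interval -0.18 to 0.18), and neither could RKO and H460 (0.02, -0.21 to 0.26). With library totals as the scale the differences turned to -0.46 for HCT116 against H460, -0.78 for HCT116 against A549 and -1.35 for RKO against H460, each at an adjusted p under 0.05, so these orders depend on the scale.

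BNIP3 was higher in H460 than in the other lines that had a peak. The log2 difference was -0.56 for HCT116 against H460 (adjusted p = 2.978e-06, exact binomial test) and -0.49 for A549 against H460 (adjusted p = 3.275e-05, exact). HCT116 and A549 could not be told apart at BNIP3 (-0.07, -0.32 to 0.18), but differed by -0.86 with library totals as the scale (adjusted p = 2.933e-11, exact).

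FAM162A was lower in RKO than in each other line. The log2 difference was 0.71 for HCT116 against RKO (adjusted p = 8.112e-05, exact binomial test), -0.47 for RKO against A549 (adjusted p = 0.01328, exact) and -0.42 for RKO against H460 (adjusted p = 0.02039, exact). In these pair tests the HCT116, A549 and H460 levels of FAM162A could not be told apart. The log2 differences were 0.16 (-0.09 to 0.41), 0.18 (-0.06 to 0.42) and 0.02 (-0.23 to 0.27). Over the common medians, however, the HCT116 interval (2.62 to 3.32 times) lay above that of H460 (2.01 to 2.53). The A549 interval (2.05 to 2.64) overlapped both. On other scales HCT116 differed from A549, by 0.32 with the median ratio over regions called in both lines (adjusted p = 0.03281, exact) and by -0.62 with library totals (adjusted p = 2.336e-06, exact), and from H460 by -0.81 with library totals (adjusted p = 7.09e-11, exact). The distal BNIP3L peak gave 3 further pairs, none at an adjusted p under 0.05, of which RKO against H460 was the widest at -0.71 (-1.41 to -0.06, adjusted p = 0.06318, exact binomial test). That pair passed at -0.99 with the median ratio (adjusted p = 0.007441, exact) and at -2.09 with library totals (adjusted p = 1.019e-11, exact), and HCT116 against H460 passed at -1.62 with library totals (adjusted p = 2.97e-09, exact).

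RCGTG was present in the central 200 bp of 15 of the 20 hypoxia peaks of these genes. A region called in more than 1 line counts here once for each line, so the 20 peaks are not separate sequences. The count was 4 of 4 in H460, 4 of 5 in A549, 4 of 4 in HCT116 and 3 of 7 in RKO, and the share over all peaks of the list was 76.9%, 52.4%, 65.1% and 30.5%. The 5 peaks without it were the RKO and A549 peaks of BNIP3L called in 1 line and both MCL1 hypoxia peaks. Every start peak of BNIP3, BNIP3L and FAM162A held at least 3 in its central 200 bp. The share over all hypoxia peaks with 2 or more there was 38.9% in H460, 23% in A549, 34% in HCT116 and 13.8% in RKO. The number depends on the window. The BNIP3L start peaks of A549 and H460 held 2 inside the called peak and 1 in the central 100 bp.

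The genes whose hypoxia levels were most like those of BNIP3L across the 4 lines, by Euclidean distance of log2 levels over the common median among 658 genes with a peak in all lines, were PDK1 (0.583), a kinase that inhibits pyruvate dehydrogenase, ALDOA (0.680), a glycolytic enzyme, and ENSG00000285043, which shares the ALDOA peak. PDK1 had 69.4 tags per 10 M in HCT116, 83.5 in A549, 39.9 in RKO and 110.4 in H460. Those most like FAM162A were HIF1A itself (0.392), the lipid droplet protein HILPDA (0.403) and the transcriptional repressor BHLHE40 (0.448). HIF1A had 38.9 tags per 10 M in HCT116, 46.4 in A549, 15.1 in RKO and 53.4 in H460. RKO, which had the lowest common median, was also lowest in tags per 10 M for BNIP3L, FAM162A and each gene named here as like them. These genes were picked for levels like those of BNIP3L or FAM162A, so their order is no separate result. A distance over 4 lines is a description and carries no error.

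Among 68 other genes of mitophagy, autophagy, mitochondrial dynamics and the BCL2 family, 38 (55.9%) were bound in hypoxia in at least 1 line, where all protein-coding genes gave 51.8%. Only 2 of the 68 (2.94%) had a peak in all 4 lines, against the 3.26% given above. A hypoxia peak above the common median of its line was found for 4 of the 68, against 3.32% of all protein-coding genes, and VDAC1, ATG9A and BCL2L2 were among them.

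Of 18 further mitophagy receptors and regulators, 10 were bound in hypoxia in 1 line or more and none in all 4. VDAC1, a channel of the outer membrane, had a peak at its start in HCT116 (8.34 tags per 10 M) and H460 (32.8, 27.9 to 38.2), 37 and 26 bp from the start and with 5 cores in each. FKBP8, an outer membrane receptor for LC3, had 1 peak, in H460, 29 bp from its start (7.48). PINK1, a kinase that marks damaged mitochondria, had 1 weak RKO peak (2.84).

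Of 24 autophagy adaptors and core genes, 16 were bound in hypoxia in 1 line or more. ATG9A, a lipid scramblase of the autophagosome membrane, had one in all 4 lines. Its level was 12 tags per 10 M in RKO, 19.8 in A549 and 41.2 in H460 at 714 to 723 bp before the gene start, and 7.24 in HCT116 at 10871 bp past the start. The first 3 of these centres lay nearer to the start of ANKZF1 and the HCT116 centre lay 148 bp from the start of ABCB6, so neither position singles out ATG9A. Among 10 genes of mitochondrial fission and fusion, 6 had a hypoxia peak, in at most 2 lines each, and the highest mean levels over the lines with a peak were 4.94 at MIEF1 in A549, 4.91 at OPA1 in HCT116 and 3.89 at OMA1 in RKO. The MIEF1 peak lay 21107 bp past the MIEF1 start and 844 bp from the start of ATF4. The OPA1 and OMA1 peaks lay 12 and 76282 bp from the starts of these genes. MIEF1 links the fission GTPase to the membrane, OPA1 fuses inner membranes and OMA1 cleaves OPA1.

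In the BCL2 family, 1 of 5 anti-apoptotic genes other than MCL1 had a hypoxia peak. This was BCL2L2 (BCL-w), with 52.6 tags per 10 M in H460 (46.4 to 59.4) and 35.2 in A549 (30.0 to 41.0). HCT116 had 15.2 (12.7 to 18.1) and RKO had 14.9 (12.2 to 18.2), a pair whose intervals overlap. The centres lay 2670 to 2701 bp past its start and 1368 to 1399 bp from the start of PPP1R3E, a regulator of glycogen metabolism, and each held 1 core. BCL2L2 stood 1.29 to 1.95 times above the common median of the 4 lines. Of 11 pro-apoptotic genes, 5 had a hypoxia peak, none in all 4 lines. BIK had 8.10 in HCT116, BAX had 7.18 in RKO and 8.29 in H460, and BAD had 7.09 in A549. This BAD peak lay 15372 bp past the BAD start and 730 bp from the start of GPR137. The BIK peak lay 16999 bp past the BIK start. The hypoxia peaks of the BAX window lay 38 to 2347 bp from the start of FTL, the ferritin light chain gene. Normoxia peaks of this window lay 1827 to 2590 bp from the FTL start, in RKO (4.21), A549 (28.4) and H460 (4.32). In A549 the BAX window had this normoxia peak and no hypoxia peak.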

How the data were processed

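Peaks were taken from 8 deposited HOMER lists, 1 for each line and condition. Per the labels, the submitters' processing notes name the build GRCh37 (hg19), Bowtie2 2.2.9, FastQC 0.11.5, SAMtools 1.3.1, Picard 1.129 and HOMER 4.3. The authors combined both replicates before calling peaks against the line's input, and set the fold over input line by line. The deposited signal is tags per 10 M tags, and the deposited ratios are the fold over input and the fold over the local region. Sonication differed between lines, and peak width between lists (118 to 190 bp), so width, depth and precipitation efficiency can move a level. Cell identity could not be checked from peaks.

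Whole tags were recovered from level and library total, and their sums equalled the header value in all 8 lists. Peaks of the hypoxia lists that overlapped by at least 1 bp formed regions, 232 of them called in all 4 lines. Tags were compared with exact conditional binomial tests, adjusted by the Benjamini-Hochberg method over all shared peaks or regions (SciPy 1.17.1, Python 3.11.15). The tests were run on simulated counts that held counting error only. That check does not cover the spread between replicates. The binomial tests measure counting error between merged libraries. Genes were named by rule: the 5 genes, list genes with hypoxia peaks in all 4 lines or otherwise up to 3 per list with the highest mean level, and the 3 genes nearest in level; PINK1 was named after its values were seen, and the values of 1 list gene are not reported here. Members, lists and tests were chosen with earlier results of these data known. Alternatives are given in the closing section.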

Additional observations from a re-analysis of the deposited data

How the results depend on the processing

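No paired analysis was possible because each list holds tags of its replicates together, and leaving out single replicates was not run for the same reason. The number of the 5 genes with a hypoxia peak in all 4 lines stayed at 2 with windows of 5 kb, 50 kb or 10 kb around the gene start, with a local fold of at least 6, with a fold over input of at least 14 and with at least 5 tags per 10 M. The share of all protein-coding genes did change, from 3.26% to 2.62%, 9.57% and 1.69% with these windows in turn. With these filters in turn it was 1.99%, 1.03% and 1.79%. The number of the 5 genes was 3 without RKO, which adds BNIP3, and 2 without each other line. Shares of all genes without a line were not computed. With a local fold of at least 6 the number of these genes with a peak was 0 in RKO normoxia, where MCL1 dropped out, and 2 in RKO hypoxia. The shares of all genes there were 3.81% and 11.2%. The number of the 68 list genes with a hypoxia peak fell to 25 with the window around the gene start (36.8%, against 32.7% of all genes), 22 with a local fold of at least 6 (32.4% against 29.7%) and 22 with at least 5 tags per 10 M (32.4% against 21.2%). The A549 ratios of BNIP3 and BNIP3L kept their direction and call per bp of peak width and with centres within 50 bp, and 15 of 20 peaks held RCGTG in each window tried.

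The scale between lines changed calls. With library totals, 14 of 15 pairs of lines at the start regions differed, in place of 9, and the log2 difference turned to -0.62 (FAM162A, HCT116 against A549), -0.78 (BNIP3L, HCT116 against A549), -0.81 (FAM162A, HCT116 against H460), -0.46 (BNIP3L, HCT116 against H460), -1.35 (BNIP3L, RKO against H460) and -0.19 (FAM162A, A549 against H460). BNIP3 in HCT116 against A549 (-0.86) and the distal BNIP3L peak in HCT116 against H460 (-1.62) and RKO against H460 (-2.09) became calls. This scale leaves in the difference between the common medians of the lines. The share of all regions that differed with library totals was not computed. The 14 pairs therefore cannot be read as a result about these genes in particular. With the median ratio over regions called in both lines, 10 of 15 start pairs differed, and the share of all regions was not computed there either. FAM162A in HCT116 against A549 (0.32) and the distal BNIP3L peak in RKO against H460 (-0.99) became calls, while BNIP3 in HCT116 against A549 turned to 0.086 and BNIP3L in RKO against H460 to -0.25, neither at an adjusted p under 0.05, and the cause was not tested. Relative to the median over all peaks of a list, all 20 hypoxia levels moved beyond their counting interval, and all 11 start peaks stayed above the median. The hypoxia peaks called in 1 line rest on 17 to 25 tags, apart from 56 at MCL1, where the weakest hypoxia peaks of the lists held 11 to 17.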

Other observations

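In A549 normoxia, the BAX window had a peak of 28.4 tags per 10 M (23.5 to 34.0), the 12th of the list. BNIP3L also had 28.4 there. Among the cell death and mitophagy genes named here, these were the strongest normoxia peaks. Normoxia levels of the list genes that are not named here were not compared. The BAX peak held no RCGTG in its central 200 bp, whereas the BNIP3L peak held 4 cores. The BAX peak of A549 normoxia lay 2590 bp from the start of FTL.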
